A study of Mus musculus with 6 samples.

Results

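The hemoglobin and erythroid genes examined here were the adult alpha-globin genes *Hba-a1* and *Hba-a2*, the adult beta-globin genes *Hbb-bs* and *Hbb-bt*, and *Alas2*, which encodes the erythroid form of the first enzyme of haem synthesis. They were selected by gene symbol, and all 5 were found among the 37310 genes of the count table. Whole brain RNA came from male C57BL/6 mice aged 12 weeks and was sequenced after removal of ribosomal RNA. The *Adar1* E861A/E861A *Ifih1*-/- group (hereafter E861A) carried a point mutation that removes the editing activity of ADAR1, and the *Adar1*+/+ *Ifih1*-/- group (hereafter WT) carried the normal enzyme. Both groups lacked *Ifih1* and with it MDA5, a sensor of double-stranded RNA, so every mouse was a knockout for that gene and neither group was wild type throughout. Each group had 3 libraries, described as independent biological replicates, and the animals carried their alleles in every tissue. Whether the brains were perfused to remove blood is not given in the sources used here.

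Hemoglobin carries oxygen in red blood cells and is built from alpha and beta globin chains, each holding a haem group. In the adult mouse the chains come from paired, nearly identical gene copies, and the embryonic globin genes of the same clusters are silent. Mature red cells have no nucleus, but young red cells, the reticulocytes, still hold globin mRNA, which is why globin reads are used as a sign of blood in RNA from solid tissue. Hemoglobin transcripts have also been described in neurons, among them dopaminergic neurons, and in other brain cells. ALAS2 supplies haem to developing red cells, and the related *Alas1* supplies it in other tissues. In bulk RNA, fewer cells of a type and less RNA per cell cannot be told apart.

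In mm9, *Hbb-bs* (ENSMUSG00000052305) lies at chr7:110975048-110976610 and *Hbb-bt* (ENSMUSG00000073940) at chr7:110961038-110962510, both on the minus strand. *Hba-a1* (ENSMUSG00000069919) lies at chr11:32183511-32184465 and *Hba-a2* (ENSMUSG00000069917) at chr11:32196489-32197301, both on the plus strand. The copies are close to identical in sequence. *Hba-a1* and *Hba-a2* differed at 1 of 429 coding bases (C381T) and *Hbb-bs* and *Hbb-bt* at 1 of 444 (C417T), with the base of the first-named copy given first and positions counted from 1 at the first base of the start codon. The stretches that hold these single differences are shown because they are the only coding bases that tell a read of each copy from a read of its partner. Each is written 5′ to 3′ on the coding strand, with the differing base in capitals, and each lies in exon 3 of 3.
*Hba-a1*, chr11:32184284-32184343: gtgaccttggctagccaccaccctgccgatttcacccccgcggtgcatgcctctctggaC
*Hba-a2*, chr11:32197101-32197160: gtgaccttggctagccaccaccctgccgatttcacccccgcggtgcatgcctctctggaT
*Hbb-bs*, chr7:110975206-110975265: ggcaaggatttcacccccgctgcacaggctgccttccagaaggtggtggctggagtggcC
*Hbb-bt*, chr7:110961197-110961256: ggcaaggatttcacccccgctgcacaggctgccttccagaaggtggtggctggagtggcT

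The reads were paired and 75 bases long, and a large share of each globin transcript could not be placed from a single read of that length. A mate in sequence particular to a copy can place its pair, which the shares below leave out of account. Of the 625 windows of 75 bases in the *Hba-a1* transcript, 62.2% were also found in *Hba-a2*, and of the 480 windows in *Hba-a2*, 81.0% were also found in *Hba-a1*. For *Hbb-bs* 50.6% of 704 windows recurred in *Hbb-bt*, and for *Hbb-bt* 56.6% of 629 recurred in *Hbb-bs*. No other protein-coding transcript shared such a window with a globin gene. The deposited counts held uniquely mapped reads, so reads that fit both copies of a pair were counted for neither. The sum of a pair therefore falls short by an unknown part. The split between the copies and the ratio of beta to alpha counts are uncertain too. *Alas2* (ENSMUSG00000025270, chrX:146981918-147005181, plus strand) had no window in common with another gene. It lies inside the span of *Apex2*, a DNA repair gene on the minus strand, and 311 of its 2403 exon bases (12.9%) overlapped exons of *Apex2*.

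The sequences upstream of the transcription start are shown to set the globin genes beside *Alas2*. All 4 globin genes were about 2 times higher in WT replicate 2 than in the mean of the other libraries, while *Alas2* was not. Whether upstream sequence bears on that excess was not tested. The 250 bases before each start came from RefSeq on GRCm38.p6, where all 5 genes matched, and are written 5′ to 3′ in the direction of transcription. Capitals mark GATAA, the core recognised by GATA factors such as GATA1, and CACCC, the core recognised by KLF1, on either strand, with no match overlapping another.
*Hba-a1*, plus strand, chr11:32283422-32283671: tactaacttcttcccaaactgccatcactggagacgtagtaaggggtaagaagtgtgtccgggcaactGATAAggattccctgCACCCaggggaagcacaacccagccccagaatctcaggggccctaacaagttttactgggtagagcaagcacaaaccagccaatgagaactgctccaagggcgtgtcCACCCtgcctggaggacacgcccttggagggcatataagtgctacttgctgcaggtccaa
*Hbb-bs*, minus strand, chr7:103827929-103828178: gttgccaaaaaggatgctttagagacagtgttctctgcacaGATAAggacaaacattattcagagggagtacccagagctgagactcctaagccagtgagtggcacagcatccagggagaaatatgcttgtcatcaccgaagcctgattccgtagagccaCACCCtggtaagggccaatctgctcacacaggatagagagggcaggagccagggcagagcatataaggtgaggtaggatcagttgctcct
*Hbb-bt*, minus strand, chr7:103813924-103814173: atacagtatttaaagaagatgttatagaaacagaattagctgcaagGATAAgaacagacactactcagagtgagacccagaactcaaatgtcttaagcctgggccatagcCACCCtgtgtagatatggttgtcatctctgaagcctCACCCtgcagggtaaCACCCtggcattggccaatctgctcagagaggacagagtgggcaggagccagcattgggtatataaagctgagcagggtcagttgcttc
*Alas2*, plus strand, chrX:150547167-150547416: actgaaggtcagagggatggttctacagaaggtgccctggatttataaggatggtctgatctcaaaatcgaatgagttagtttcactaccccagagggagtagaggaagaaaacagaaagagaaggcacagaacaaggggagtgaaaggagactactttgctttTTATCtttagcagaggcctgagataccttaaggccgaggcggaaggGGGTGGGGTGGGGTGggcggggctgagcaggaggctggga

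All 5 windows held both cores, among them *Hba-a2*, whose window matched that of *Hba-a1* at every one of 247 aligned bases and is not repeated. The *Hbb-bs* and *Hbb-bt* windows were 73.3% identical over 243 aligned bases, so the beta-globin pair differs more upstream than in its coding sequence. GATAA began 182 bases before the start in *Hba-a1*, 209 in *Hbb-bs*, 204 in *Hbb-bt* and 86 in *Alas2*, where it stood on the opposite strand. CACCC occurred once in *Hbb-bs*, 2 times in *Hba-a1* and 3 times in *Hbb-bt* and *Alas2*. Among 32851 RefSeq promoters, 22.6% held GATAA, 52.0% held CACCC and 10.1% held both in the same span. A match to CACCC alone is thus common and a match to both is less so. The matches are a description of these letters only.

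The libraries held between 26853488 and 38076753 counts, and mitochondrial genes took 11.02% to 13.8% of them. The count table gave *Adar* at 151 to 169 CPM in E861A and 116 to 172 in WT, but a point mutation leaves its reads in place and these values do not check the labels. *Ifih1* was at 38 to 56 counts in all 6 libraries, with no normal allele in either group for comparison. CPM here means the count of a gene scaled to a library total of 1000000 counts. A count of 0 allowed a level of up to 0.079 to 0.112 CPM, the limit of 3 counts, and such limits cover counting error only.

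All 4 globin genes were present in every library and stood highest in WT replicate 2. *Hbb-bs*, the more abundant beta-globin copy, was at 84.2, 71.5 and 76.9 CPM in E861A replicates 1 to 3 and at 77.0, 155.7 and 87.9 CPM in WT replicates 1 to 3. These levels rested on 2064 to 5927 counts. WT replicate 2 stood 1.77 times above the next highest library, and the remaining 5 libraries were interleaved between genotypes. The group means were 77.5 ± 6.40 CPM in E861A and 106.9 ± 42.6 CPM in WT (SD, n = 3 each).

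*Hbb-bt*, the lesser beta-globin copy, had the same high library at a lower level. It was at 10.7, 9.18 and 8.94 CPM in E861A and at 8.32, 19.1 and 10.7 CPM in WT. The highest value was again WT replicate 2, and the lowest was WT replicate 1, so the E861A values lay within the WT range.

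The alpha-globin copies had the same high library. *Hba-a1* was at 12.9, 9.67 and 8.75 CPM in E861A and at 10.03, 21.9 and 11.6 CPM in WT. *Hba-a2* was at 8.90, 5.21 and 7.04 CPM in E861A and at 6.86, 14.5 and 7.81 CPM in WT. Both alpha copies had their second highest value in E861A replicate 1, and both groups overlapped for each. The 4 globins together came to 116.7, 95.5 and 101.6 CPM in E861A and to 102.2, 211.1 and 118.0 CPM in WT. That was 0.00955% to 0.0118% of all counts in 5 libraries and 0.0211% in WT replicate 2. Uniquely placed hemoglobin reads were thus a minor part of every brain library. Reads that fit both copies of a pair are missing from these shares.

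*Alas2* did not share the excess of WT replicate 2. It was at 15.5, 11.6 and 13.0 CPM in E861A and at 13.4, 15.2 and 13.2 CPM in WT. Its highest value was in E861A replicate 1, and WT replicate 2 came second at 1.14 times the mean of the other 5 libraries, where *Hba-a1*, *Hba-a2*, *Hbb-bs* and *Hbb-bt* stood at 2.06, 2.03, 1.96 and 1.99 times. *Apex2*, which overlaps it on the other strand, had 22.2 CPM in WT replicate 2 and 26.1 to 30.3 CPM elsewhere. Which strand setting was used for the counts is not given in the sources used here, and the part of *Apex2* reads in the *Alas2* count was not tested.

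**Figure D1:**
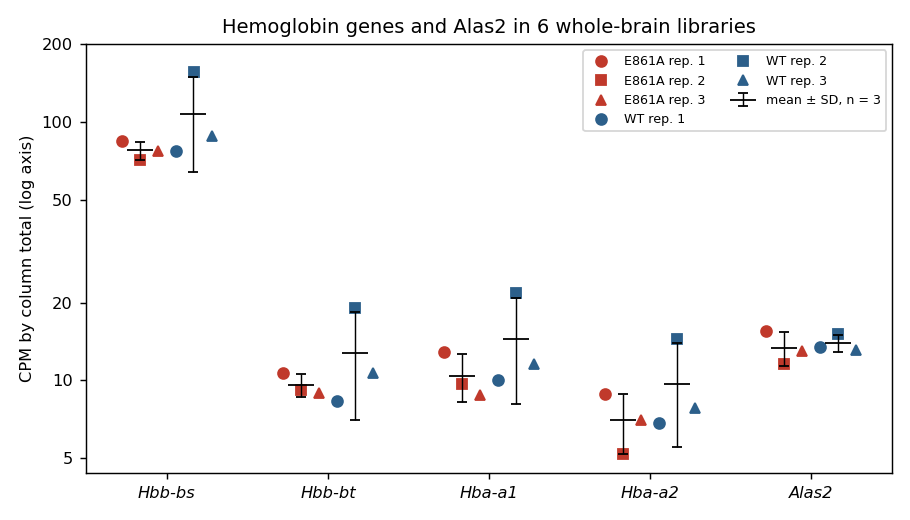
Level of each gene in CPM by column total (log axis) for the 6 libraries, coloured by genotype and shaped by replicate number, with the mean and SD of each genotype (n = 3) in black. WT replicate 2 is the highest point for all 4 globin genes but not for *Alas2*, where E861A replicate 1 is higher at 15.5 CPM.

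Set on a scale that allows genes to be compared, CPM per kb of annotated exon, the 5 genes ranged widely. Averaged over the 6 libraries, *Hbb-bs* stood at 106.8 CPM per kb, above 98.4% of the 13649 genes tested. *Hbb-bt* at 15.9, *Hba-a1* at 15.4 and *Hba-a2* at 12.5 CPM per kb were close to each other, and their ranges over libraries overlapped. *Alas2* was lowest at 5.68 CPM per kb, above 46.2% of the genes tested and below every globin gene in every library. The range of *Alas2* was 4.83 to 6.46 CPM per kb, and the nearest globin, *Hba-a2*, ranged from 7.77 to 21.7. The annotated exon length of *Hba-a2*, 670 bases, was shorter than the 812 bases of *Hba-a1*, and these levels depend on those lengths as well as on the unique placement of reads.

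The proportions among the globin genes in WT replicate 2 were within the range of the other libraries. *Hbb-bs* supplied 72.2% to 75.7% of the globin counts, and 73.7% in WT replicate 2. Beta-globin counts exceeded alpha-globin counts by 4.36 to 5.43 times, and by 4.80 times in WT replicate 2. This library lay inside the range of the others on both measures although its globin total was 1.98 times their mean. Per kb of exon the beta to alpha ratio was 3.87 to 4.87. The ratio of *Hbb-bs* to *Hbb-bt* counts was 7.79 to 9.26, with 8.15 in WT replicate 2. Over the other 5 libraries the coefficient of variation was 8.62% for beta over alpha and 9.35% for the summed globin CPM. The ratio of *Hba-a1* to *Hba-a2* counts was 1.45, 1.86 and 1.24 in E861A and 1.46, 1.505 and 1.49 in WT. Its SD was 0.313 in E861A and 0.0205 in WT (n = 3 each), from counts of 189 to 372 in E861A.

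Of these within-library ratios, only that of globin to *Alas2* set WT replicate 2 apart. The 4 globins together had 7.52, 8.24 and 7.82 counts per *Alas2* count in E861A and 7.61, 13.9 and 8.97 in WT. The other 5 libraries had a coefficient of variation of 7.36% for this ratio, and WT replicate 2 was 1.55 times the highest of them. No test was made of this ratio, because WT replicate 2 was singled out after its values were seen.

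**Figure D2:**
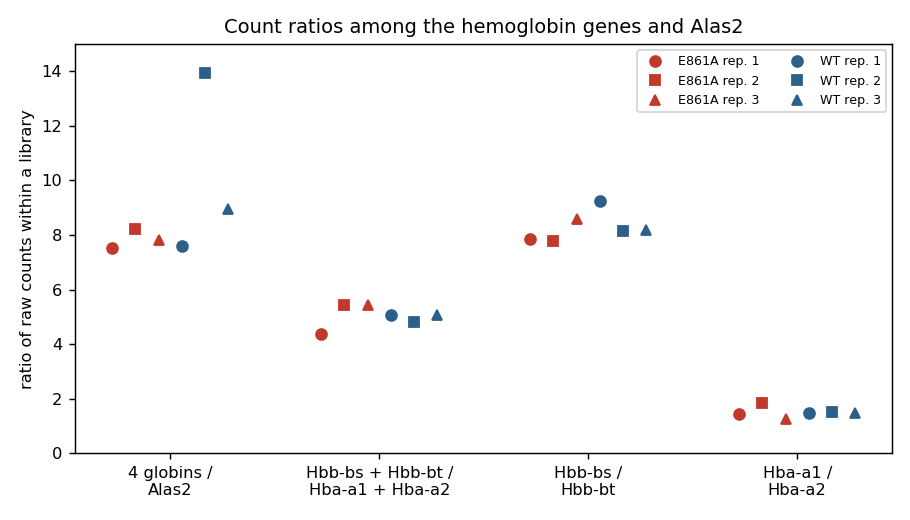
Ratios of raw counts within each library (linear axis from 0) for the pooled globins over *Alas2*, beta over alpha globin, *Hbb-bs* over *Hbb-bt* and *Hba-a1* over *Hba-a2*. WT replicate 2 lies at 13.9 for globins over *Alas2*, against 7.52 to 8.97 in the other libraries, and within the other libraries for the remaining ratios.

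The genotypes were compared by the quasi-likelihood test of edgeR over all 13649 genes at 2 CPM or more in every library of either genotype. None of the 5 genes was called at a Benjamini-Hochberg adjusted p under 0.05, against 0.506% of all genes tested (69 genes, or 158 with the replicate number as a block, which called none of the 5 either). All 5 had lower fitted levels in E861A, and none of these differences passed the test. The largest difference on the log2 scale was that of *Hba-a2*, -0.49 ± 0.245 (SE), for which edgeR gave an adjusted p of 0.579. *Hba-a1* followed at -0.48 ± 0.233 with an adjusted p of 0.565 by edgeR. For *Hbb-bs* the difference was -0.47 ± 0.189 with an adjusted p of 0.496 by edgeR, and for *Hbb-bt* -0.41 ± 0.226 with an adjusted p of 0.616 by edgeR. *Alas2* was at -0.064 ± 0.0979 with an adjusted p of 0.876 by edgeR. Only *Hbb-bs* had an unadjusted p under 0.05 (0.0267, edgeR), as did 9.01% of all genes tested. The median log2 fold change was -0.47 over the 5 genes and -0.001 over all genes tested. The groups overlapped for each of the 5 genes, whereas 13.8% of all genes tested had no overlap between the genotypes.

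The fitted differences of the globins rested on WT replicate 2. Without it, the log2 fold change was -0.08 for *Hbb-bs*, 0.023 for *Hbb-bt*, -0.04 for *Hba-a1*, -0.06 for *Hba-a2* and 0.014 for *Alas2*, so that *Hbb-bt* and *Alas2* changed sign. The mean of the summed globins was 104.6 ± 10.9 CPM in E861A and 143.8 ± 58.8 CPM in WT (SD, n = 3), but 110.1 CPM in WT over the remaining 2 libraries. On the log2 scale the difference of the sums was -0.46 with all libraries and -0.07 without WT replicate 2. None of the 5 genes was called with any single library left out. With no filter on low counts, the same test called all 4 globins but not *Alas2*, against 1.28% of the 29282 genes then tested. In that fit edgeR estimated infinite prior degrees of freedom, so the spread of a gene's own replicates had no weight, whereas they were 9.72 with the filter.

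**Figure D3:**
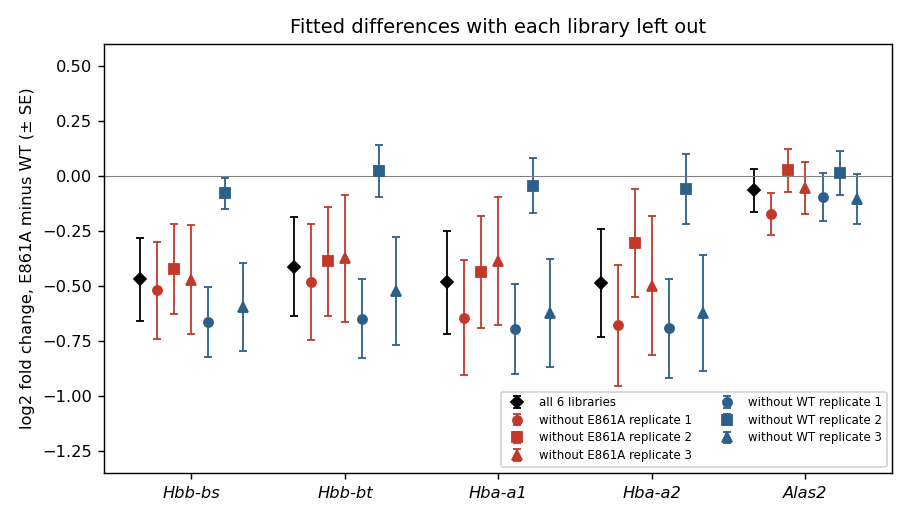
Log2 fold change of E861A minus WT with its SE (error bars) for each gene, fitted with all 6 libraries (black diamonds) and with each library left out in turn (coloured by the genotype of the library left out). The globin values lie between -0.70 and -0.30 in every fit that keeps WT replicate 2 and between -0.08 and 0.023 in the fit without it.

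The spread between libraries of one genotype was large for the globins. The pooled within-genotype SD of log2 CPM was 0.391 for *Hbb-bs*, 0.445 for *Hbb-bt*, 0.469 for *Hba-a1* and 0.492 for *Hba-a2*. These values exceeded those of 99.4% to 99.8% of the genes tested, and for *Hbb-bs* those of 99.9% of the 3351 genes within 2-fold of its CPM. For *Alas2* the SD was 0.168, above 86.4% of the genes tested. Among the WT libraries the coefficients of variation of the globin CPM were 39.9% to 44.5%, where counting error alone would give 1.59% to 5.27%. Among the E861A libraries they were 8.26% for *Hbb-bs*, 9.97% for *Hbb-bt*, 20.8% for *Hba-a1* and 26.2% for *Hba-a2*, with counting errors of 2.06% to 6.87%. The SD of log2 CPM within E861A alone exceeded that of 69.8% of the genes tested for *Hbb-bs*, 77.9% for *Hbb-bt*, 96.9% for *Hba-a1* and 99.1% for *Hba-a2*. For *Alas2* the coefficient of variation was 14.8% in E861A and 7.75% in WT.

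**Figure D4:**
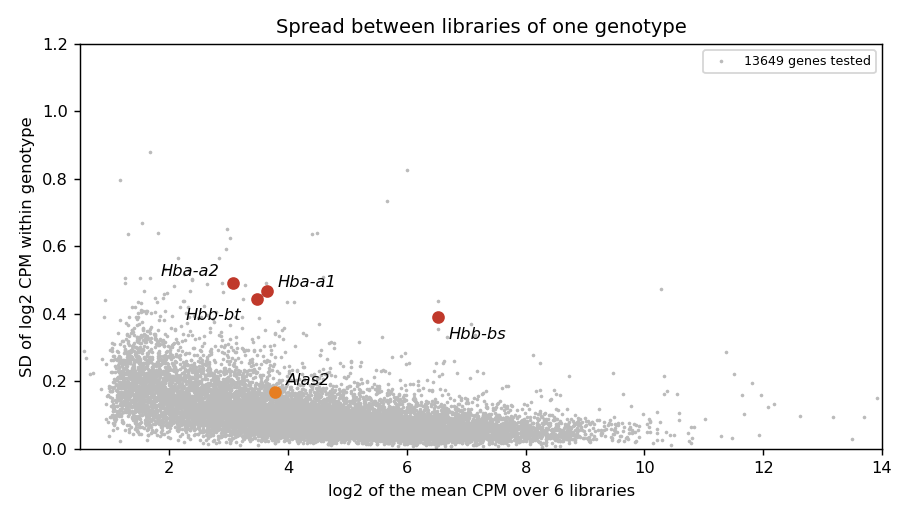
Pooled SD of log2 CPM within genotype against log2 of the mean CPM for the 13649 genes tested (grey) and the 5 genes described (coloured and named), with 2 genes above the top of the axis and 3 beyond its sides. The 4 globins lie between 0.391 and 0.492, above most genes at the same level, and *Alas2* lies at 0.168.

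The excess in WT replicate 2 was found in few other genes among those tested. Of 13649 genes tested, 7 were at 1.5 times or more the level of the next highest library there, a threshold set after the values were seen. The first 4 in order of that ratio were *Hbb-bt* (1.78), *Hbb-bs* (1.77), *Hba-a1* (1.70) and *Hba-a2* (1.63). The others were *Trappc6a* (1.57), a vesicle trafficking gene, *Ndn* (1.54), an imprinted neuronal gene, and *Lars2* (1.51), a mitochondrial leucine tRNA synthetase. In each of the other 5 libraries, 0 to 3 genes met the same criterion and none was a globin. These numbers leave out genes that are under 2 CPM outside a single high library, because the filter removes them. Among those left out were *Gh*, at 291.5 CPM in E861A replicate 1 and at most 1.30 CPM elsewhere, and *Car1*, with 41 counts in WT replicate 2.

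The other globin genes were at or near 0, apart from *Cygb*, *Ngb* and *Mb*. Of 10 such genes matched, the embryonic *Hba-x* and *Hbb-bh1* and the related *Hbb-bh0* and *Hbb-bh2* had 0 counts in all 6 libraries, and *Hbb-y* had at most 1 count in a library. *Hbq1a* had 1 to 9 counts and *Hbq1b* 0 to 4 counts in a library, with 1 and 0 in WT replicate 2. The highest 3 of the list were *Cygb* (cytoglobin, 23.2 to 29.6 CPM), *Ngb* (neuroglobin, 2.61 to 3.57 CPM) and *Mb* (myoglobin, 0.496 to 1.01 CPM), and none was called. Hemoglobin counts thus fell almost wholly on the adult genes described above, and *Cygb* in WT replicate 2, at 29.1 CPM, was below the other WT libraries. *Hba-ps4*, an alpha-globin pseudogene, had 17 to 24 counts in every library and 18 in WT replicate 2.

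The enzymes and carriers of haem synthesis varied little in sum across libraries. All 13 listed genes were tested, 4 had a log2 fold change above 0 and 9 below, and none was called. Their median log2 fold change was -0.02, and their summed level was 233.6 to 242.2 CPM in E861A and 242.4 to 246.3 CPM in WT. The sums did not overlap between the genotypes, as was so for 8 of the 16 lists. *Fech*, which inserts iron into protoporphyrin to form haem, was highest at 38.5 to 41.2 CPM, followed by *Cpox* at 32.2 to 36.4 and *Alas1* at 28.7 to 31.7. The list was at 1.01 times the mean of the other libraries in WT replicate 2, where the globins were at 1.98 times. How much of the level of these genes came from red cells was not tested.

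Genes of the red cell membrane and cytoplasm divided into those that the brain uses as well and those that were scarce. Of 30 matched genes, 17 were tested and none was called, at a median of -0.03 on the log2 scale. The highest were *Sptb* (224 to 263 CPM), *Dmtn* (143 to 172 CPM) and *Ank1* (127 to 159 CPM), cytoskeletal genes that neurons also express. A further 5 genes were read from a fit with edgeR's default filter, in which 0.568% of 19366 genes were called and none of these. The remaining 8 genes were kept as counts, and *Icam4* had 0 counts throughout. *Slc4a1*, the anion exchanger of the red cell membrane, was at 0.831, 0.524 and 1.97 CPM in E861A and at 0.746, 0.840 and 0.448 CPM in WT. It was highest in E861A replicate 3. In the same list *Car1*, a carbonic anhydrase, had 41 counts in WT replicate 2 and 0 to 4 elsewhere, and *Fam46c* was at 9.77 CPM in WT replicate 2 and 5.82 to 7.52 CPM elsewhere. These genes thus did not share a single high library. *Slc4a1*, *Icam4*, *Car1* and *Fam46c* were named after their values were seen.

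**Figure D5:**
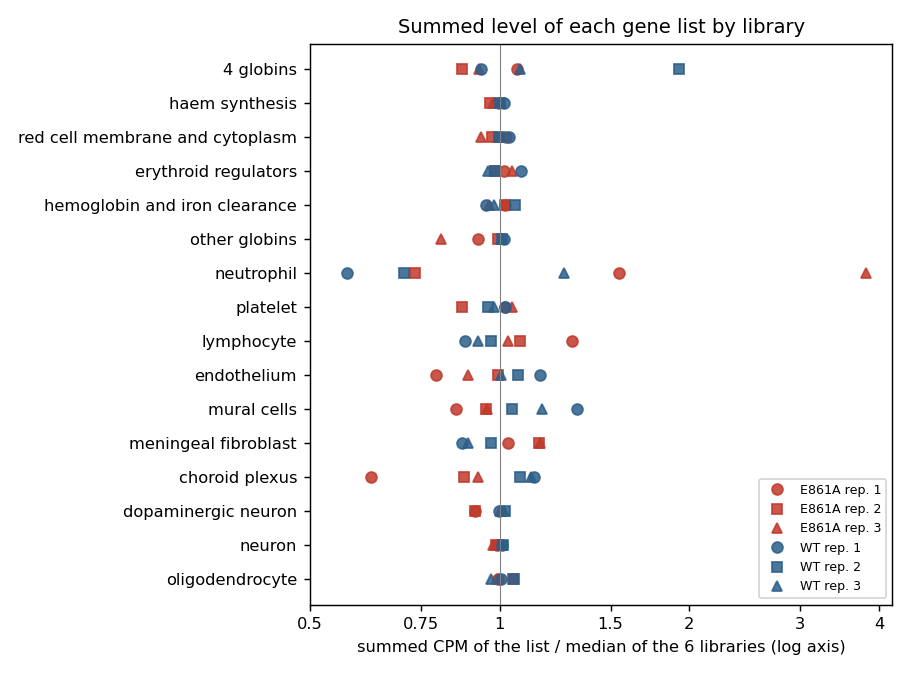
Summed CPM of each gene list divided by its median over the 6 libraries (log axis), with the 4 globins in the top row, coloured by genotype and shaped by replicate number. The globins reach 1.98 times the mean of the other libraries in WT replicate 2, while the haem synthesis, red cell and erythroid regulator lists stay between 0.97 and 1.01 times theirs. Pituitary genes, high in E861A replicate 1 only, are left out of the plot.

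Transcription factors and receptors of red cell development behaved likewise. Of 13 genes, 6 were tested, 3 above and 3 below 0, and none was called, and their median was -0.02 on the log2 scale. *Tfrc*, the transferrin receptor, was highest at 104 to 137 CPM, followed by *Bcl11a* at 77.2 to 87.4 and *Ldb1* at 45.5 to 58.2, all of which brain cells use. *Gata1*, which drives red cell genes, had at most 2 counts in a library, and *Klf1*, a factor needed for adult beta-globin transcription, had 3 to 12 counts.

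Genes that clear hemoglobin and handle its iron gave no call either. Of 15 genes, 11 were tested, at a median of 0.02 on the log2 scale. Ferritin heavy chain *Fth1* (770 to 978 CPM), the scavenger receptor *Lrp1* (608 to 679 CPM) and ferritin light chain *Ftl1* (42.8 to 49.1 CPM) were highest. *Hmox1*, the inducible enzyme that breaks down haem, was at 1.85 to 2.98 CPM and at 2.31 CPM in WT replicate 2. *Fth1* was highest in WT replicate 2, at 1.15 times the mean of the other libraries.

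Markers of the other blood cells did not follow the globins. The summed neutrophil markers, led by *S100a9*, *S100a8* and *Ngp*, were at 5.75, 2.73 and 14.2 CPM in E861A and at 2.13, 2.63 and 4.71 CPM in WT, highest in E861A replicate 3, and none of 10 passed the filter. Platelet markers, led by *Gp1bb*, *Gp1ba* and *Itga2b*, summed to 8.05 to 9.64 CPM and lymphocyte markers, led by *Ighm*, *Cd4* and *Cd79a*, to 13.1 to 19.4 CPM, with 2 of 10 tested in each list and no call. WT replicate 2 was at 0.45 times the mean of the others for neutrophil, 0.97 for platelet and 0.93 for lymphocyte markers. The part of these cells in the globin levels was not tested.

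The sums of vessel and border markers did not peak with the globins. Endothelial markers, led by *Flt1*, *Slc2a1* and *Slco1a4*, summed to 193 to 242 CPM in E861A and 245 to 282 CPM in WT, at a median of -0.29 on the log2 scale with none of 12 called. Mural cell markers, led by *Rgs5*, *Pdgfrb* and *Abcc9*, summed to 96.7 to 108 CPM in E861A and 119 to 151 CPM in WT, with a median of -0.41 and none of 6 tested called. The highest library of both sums was WT replicate 1. Neither sum overlapped between the genotypes, as was so for 8 of the 16 lists. Of 8 meningeal fibroblast markers, *Col1a2* (log2 fold change 0.42 ± 0.0769, adjusted p = 0.0199, edgeR) and *Col3a1* (0.57 ± 0.11, adjusted p = 0.0316, edgeR) rose in E861A. The list was led by *Igf2*, *Col1a2* and *Col1a1*. Without WT replicate 2 the calls in these lists were *Flt1*, *Rgs5*, *Col1a1* and *Col1a2*. That fit called 108 of 13762 genes, against 69 of 13649 in the fit of all libraries. Whether these markers bear on the globin levels was not tested.

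Choroid plexus markers, led by *Ttr*, *Kl* and *Clic6*, summed to 235 to 346 CPM in E861A and 404 to 425 CPM in WT, with none of 9 called. Dopaminergic neuron markers, led by *Aldh1a1*, *Nr4a2* and *Slc18a2*, summed to 138 to 151 CPM in E861A and 151 to 154 CPM in WT, with none of 6 tested called, and WT replicate 2 was at 1.05 times the mean of the others. Neuronal markers, led by *Snap25*, *Syt1* and *Nefl*, and oligodendrocyte markers, among them *Mbp* and *Mobp*, were at 1.02 and 1.05 times there, with no call among the 6 genes of either list. The brain markers were thus present in all libraries, and none of these lists had the globin excess. Their part in the globin levels was not tested.

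The genes most like the summed globins across the 6 libraries were ranked by Pearson's r of log2 CPM among 13642 tested genes other than globins and *Alas2*. The first 10 were *Rad21*, *Lrrc8a*, *Hadh*, *Prkaa1*, *Fam96a*, *Pnpla2*, *Uqcr10*, *Ivd*, *Ngrn* and *Aldh3a2*, with r from 0.940 to 0.994. All 6 points share the scaling to the column total, and WT replicate 2 lies far from the rest. These genes exceeded the other libraries by far less there than the globins, at 1.04 to 1.33 times the mean of the other libraries, and none was called between genotypes. *Rad21*, the first of them, was at 124 to 126 CPM in 5 libraries and 131 CPM in WT replicate 2. After centring each genotype, r for the same genes was 0.921 to 0.996, and without the 2 libraries farthest from the median globin level, E861A replicate 2 and WT replicate 2, it was 0.548 to 0.978 over 4 points. By Spearman's rho 12 genes tied at the highest value, and 3 of the 10 were among them. For *Alas2* the r with the summed globins was 0.662, as a description.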

How the data were processed

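Paired reads of 75 bases came from 6 whole brain libraries. The authors trimmed them with Trimmomatic (version 0.36), aligned them to mm9 with STAR (version 2.5.2a) and deposited raw counts of uniquely mapped reads per gene. The strand setting is not given in the sources used here. Deposited columns of the authors' own comparison and CPM tables were not used. Library totals were 26853488 to 38076753 counts. From the counts, CPM by column total was computed, and genotypes were compared over all 13649 genes at 2 CPM or more in all 3 libraries of either genotype with edgeR 4.0.16 in R 4.3.3 (TMM scaling, quasi-likelihood test, Benjamini-Hochberg adjustment), a procedure tested on simulated data. Genes under that filter were read from a fit with filterByExpr. DESeq2 1.42.0, limma 3.58.1 and other scalings, filters and sets of libraries were alternatives. Same-numbered libraries deviated together from their group means over the 13649 genes (r = 0.221, 0.329 and 0.112 for replicates 1 to 3). What the numbers mark is not stated. The main fit took no account of them, and an alternative fit entered them as a block. Exon lengths came from GENCODE vM1 on mm9. Of the 16 gene lists beside the members, 5 symbols had no match (*Hbb-b1*, *Hbb-b2*, *Ahsp*, *Tent5c* and *Lhb*), and *Fech* was in 2 lists. *Hbb-b1* and *Hbb-b2* are the names of *Hbb-bs* and *Hbb-bt* in GENCODE vM1, so these genes were measured as members. The genes and lists were chosen with earlier results of these data known. The genes named were the 5 members, the 3 of highest mean CPM and any called gene of each list, and the 10 most like the summed globins. Other list genes named (such as *Gata1*, *Klf1*, *Hmox1*, *Slc4a1*, *Car1* and the embryonic globins) were added after their values were seen. A gene that this rule would name among the marker lists is not reported here. A value of 0.01 was added to CPM before logarithms.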

Additional observations from a re-analysis of the deposited data

How the results depend on the processing

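The 5 genes were refitted under 17 alternatives. *Hba-a1*, *Hba-a2* and *Hbb-bs* kept a lower fitted level in E861A under all of them. With no filter on low counts the globins passed the threshold at log2 fold changes of -0.50 for *Hba-a1*, -0.50 for *Hba-a2*, -0.48 for *Hbb-bs* and -0.42 for *Hbb-bt*, so 4 of the 5 genes were called, and 376 genes in all. Under the other 16 alternatives none of the 5 was called, and the lowest adjusted p was 0.136, for *Hbb-bs*. Signs turned for *Hbb-bt* without WT replicate 2 (0.023) and for *Alas2* without WT replicate 2 (0.014) or E861A replicate 2 (0.025), and the cause was not tested. Leaving out 1 library gave -0.70 to -0.04 for *Hba-a1*, -0.69 to -0.06 for *Hba-a2*, -0.66 to -0.08 for *Hbb-bs*, -0.65 to 0.023 for *Hbb-bt*, -0.17 to 0.025 for *Alas2*, and -0.65 to -0.07 for the log2 difference of the summed globins. The count of all genes called was 69, and moved to 139 with a likelihood ratio test, 110 with filterByExpr, 158 with the replicate number as a block, and 42 to 113 with 1 library left out (42 without E861A replicate 3, 113 without E861A replicate 2 and 108 without WT replicate 2). The block changed no call among the 5 genes. Of the 10 genes most like the globins, 3 were among the 12 that tied at the highest Spearman's rho, and 5 were shared with the first 10 by genotype-centred values.

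With 3 libraries a group, the globin differences cannot be separated from the spread that WT replicate 2 adds, and depth is not the limit, since each globin gene had at least 189 counts in every library. The sum of each pair and the split between gene copies depend on unique read placement. How far strand kept reads of *Apex2* out of the *Alas2* count was not tested. The alternatives without WT replicate 2 for ratios, spreads and lists, and the threshold of 1.5 times for a single library, were chosen after the data were seen. Blood content was not measured apart from these transcripts.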

Other observations

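*Car1*, a carbonic anhydrase abundant in red cells and in gut epithelium, had 41 counts in WT replicate 2 and 0 to 4 counts in each of the other libraries. In the same library *Dmbt1*, a mucosal epithelial gene, had 31 counts against 0 to 1 elsewhere, *Fcgbp*, a mucus protein gene, had 21 against 0 to 9, and *Pigr*, the epithelial immunoglobulin transporter, had 18 against 0 to 8. These genes were too low for the fit and were named after their values were seen. No link between these counts and the globin level of that library was tested.

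Other libraries carried excesses of their own that the globins did not share. Pituitary markers, led by *Gh*, *Prl* and *Pomc*, summed to 444 CPM in E861A replicate 1 and to 1.33 to 3.58 CPM in the other 5 libraries. The neutrophil gene *S100a8* was at 3.50 CPM in E861A replicate 3 and at 0.315 to 1.00 CPM elsewhere. The summed globins of these libraries were 116.7 and 101.6 CPM.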
